A study of Homo sapiens with 4 samples.

Results

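Peaks on genes of the apoptosis machinery were taken from the HuR RNA immunoprecipitation sequencing (RIP-seq) peak list of MDA-MB-231, a human triple-negative breast cancer cell line. A gene was included when its symbol was XIAP, MCL1, BAX, BAK1, BID, BIK, BMF, PMAIP1, DIABLO, APAF1, FADD, CFLAR or FAS, or began with BIRC, BCL2, PDCD, TNFRSF10 or CASP followed by a digit. A peak belonged to a gene when the RefSeq transcript named in its annotation was a transcript of that gene. By this rule 56 of the 14149 peaks were kept, on 14 of the 3312 genes with a peak. The rule matched 79 gene names in all, of which 56 were protein-coding.

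RNA complexes were pulled from lysate either with anti-HuR antibody raised in mouse or with mouse IgG as the control, in 2 HuR RIP and 2 IgG RIP samples that the study's methods call biological replicates. The cells of both groups were the same untreated line, and no HuR-depleted cells were part of these samples. Libraries were made from the immunoprecipitated RNA, and the study's methods state no poly(A) selection. The outcome was 1 list for the whole series without values per sample, so the spread between replicates and the depth of each library are unknown, and neither an SD nor a test of HuR against IgG can be given. Each peak has a score, which is the value HOMER assigned to it and is not an enrichment over IgG.

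HuR, encoded by ELAVL1, is an RNA-binding protein that recognizes AU-rich and U-rich stretches of mRNA, and it is best known for stabilizing mRNAs through their 3′-untranslated regions (3′-UTRs). Apoptosis is carried out by caspases, proteases that are activated either at the apoptosome after BCL2-family proteins have opened the mitochondrial outer membrane, or at death receptors on the cell surface. Inhibitor of apoptosis proteins (IAPs) restrain caspases, and pro-survival BCL2 proteins keep the mitochondrial pores closed.

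Sequences of 3′-UTRs with and without a listed peak are given first, to show the kinds of AU-rich and U-rich stretches involved. Each is the 30-base stretch with the most ATTTA pentamers, then the most runs of TTTTT, then the most T, of a 3′-UTR peak or of a whole 3′-UTR that held no peak. They are read 5′ to 3′ on the strand of the gene from hg38, with ATTTA and runs of at least 5 T in capitals. BIRC5 and CASP2 had the highest 3′-UTR peaks, and of their stretches only those in the downstream part of CASP2 held ATTTA. The rule of choice favors T, so the U-rich look of the stretches follows from it and is not a result. The stretches of BIRC5 lie at chr17:78224065-78224094 and chr17:78224396-78224425, those of CASP2 at chr7:143305858-143305887, chr7:143306846-143306875 and chr7:143307135-143307164, that of APAF1 at chr12:98733600-98733629, that of CASP8 at chr2:201287066-201287095 and that of CASP10 at chr2:201219700-201219729, all on the + strand.
BIRC5, − peak: TTTTTTTTTTTTTggtagatgcatgacttg
BIRC5, + peak: tccTTTTTaaatgacttggctcgatgctgt
CASP2, upstream pair of peaks: ctctgtaaccacctctctgtcTTTTTcctt
CASP2, downstream − peak: ttctgctttctattacccctcATTTAaaat
CASP2, downstream + peak: atcttgtcttttcccctcattgcATTTAtt
APAF1: TTTTTaagttttcttgtagagacagggtct
CASP8: gctttgggaatgTTTTTagctggtggcaat
CASP10, + peak: ttgagcTTTTTTTTTTTTTTTTTTcaattt

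The second set comes from 3′-UTRs in which no peak was listed and which were picked because they hold many ATTTA pentamers, the core of the classical AU-rich element. Pentamers overlap in the stretches shown except in that of MCL1. XIAP had peaks elsewhere in its transcript, and the other 4 genes had none. The stretches of this set were chosen from whole 3′-UTRs and those of the first set from single peaks, so the difference between the sets follows from how they were chosen and is not a result. TNFRSF10D, which had a 3′-UTR peak with an ATTTA in its window, is not shown. XIAP is shown at chrX:123909018-123909047 and CFLAR at chr2:201167060-201167089 on the + strand, BIRC3 at chr11:102338408-102338437 on the + strand, and BCL2 at chr18:63128361-63128390 and MCL1 at chr1:150576222-150576251 on the − strand.
XIAP: aATTTAttttATTTATTTAattttcTTTTT
CFLAR: ttttatgATTTATTTATTTTTctatttctt
BIRC3: acttaacaaATTTATTTAatcacagATTTA
BCL2: attattaagaaaaaaagATTTATTTATTTA
MCL1: catttgacctaATTTAactggtgaaATTTA

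Of the 56 protein-coding genes, 12 had at least 1 peak, or 21.4% (Wilson 95% interval 12.7 to 33.8%), and 15.4% of all 20052 protein-coding genes did. A peak annotated in the 3′-UTR was listed for 5 of the 56, or 8.93% (3.87 to 19.3%), and for 6.09% of all protein-coding genes. Both intervals included the share of all genes, so the apoptosis genes were not distinguishable from protein-coding genes at large by how many were listed. Wilson intervals, and the Poisson intervals below, cover counting error only. Long transcripts were listed more often: over all genes, the share with a peak was 2.83% in the quartile with the shortest summed exon length (up to 1807 bp), 9.65% and 21.0% in the middle quartiles and 31.5% in the longest (from 4860 bp). The apoptosis genes had 0 of 15, 4 of 17, 3 of 11 and 5 of 12 listed in the same quartiles. The list moreover did not hold every peak number, because only 44.0% of the peaks numbered up to 100 on their chromosome, 1013 of 2300, were in it. Peak numbers did not strictly follow the score, so the scores of the missing peaks are unknown. The study's methods name a criterion of changed abundance for the list without its threshold, so a gene without a peak is called unlisted here and was not shown to be free of HuR.

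The highest peak of the genes spanned scores from 14.7 to 861.9, with a median of 45.5, beside 34.0 for all genes with a peak. Over single peaks the median score was 39.2, beside 34.5 for all peaks on genes with a transcript model. In descending order of their highest peak, the genes were BCL2L2-PABPN1, BIRC5, CASP2, CASP8, XIAP, BCL2L2, BIRC6, APAF1, PDCD6P1, TNFRSF10A, TNFRSF10A-DT, CASP10, BCL2L13 and TNFRSF10D. Scores under 100 rose in steps of 0.245, with 99.3% of 11121 such scores on a whole multiple within rounding, where chance would give 39.3%. The step was chosen as the one with the largest excess over chance. If 1 step is 1 sequenced tag, which the authors do not state, exact Poisson 95% intervals can be put on a score. With these intervals the first 5 genes in the order were separated from each other, whereas from XIAP downward the intervals of each pair of neighbours overlapped. The plot of scores by gene shows these intervals.

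**Figure D1:**
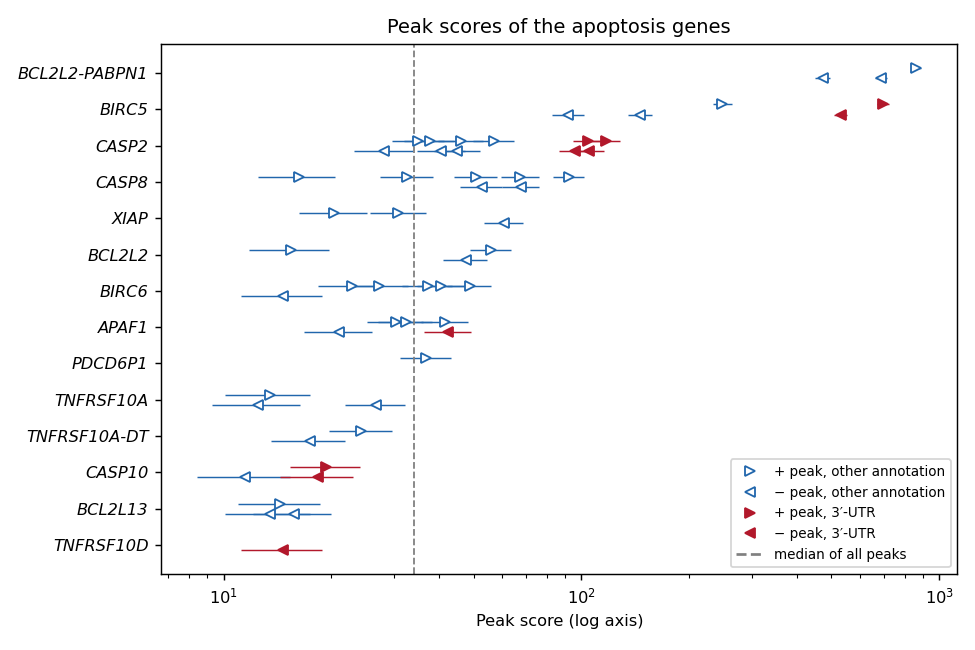
Score of each of the 56 peaks (log axis) by gene, in the order of the highest peak, with exact Poisson 95% intervals that assume 1 score step of 0.245 is 1 tag; triangles point right for + and left for − peaks, filled red triangles are annotated in the 3′-UTR, and the dashed line is the median of all 14149 peaks, 34.0. The peaks of BCL2L2-PABPN1 and BIRC5 stand to the right of all others except the lowest peak of BIRC5 at 91.8, which lies among those of CASP2 and CASP8.

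Among the IAP genes, 3 of 6 protein-coding members were listed, with 14 peaks in total. Of all protein-coding genes, 15.4% were listed, and none of the small groups described from here on was tested against that share. BIRC5, which encodes survivin, an IAP needed for chromosome segregation in dividing cells and abundant in many tumors, had the highest peaks of any gene in the set apart from a readthrough transcript described below. It had 5 peaks, and its highest score of 696.0 (Poisson interval 671 to 722) ranked 83 of 3312 genes. That peak was on the + strand at chr17:78224253-78224599, and a − peak of score 531.3 at chr17:78224065-78224411 overlapped it by 159 bp. Both lay in the upstream part of the 2081 bp 3′-UTR in exon 4 of 4, and both were named TMEM235 in the deposited gene column, so a search of that column for BIRC5 would miss them. The other 3 peaks of BIRC5 were intronic by annotation. A + peak of score 247.7 at chr17:78214388-78214734 and a − peak of score 146.1 at chr17:78214320-78214666 had their centres 119 and 66 bp from an exon in the short first intron, and a − peak of score 91.8 at chr17:78216296-78216642 was in intron 2. The BIRC5 3′-UTR held 0 ATTTA pentamers and 24 starts of TTTTT.

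XIAP, the IAP that binds and inhibits caspases directly, had 3 peaks and ranked 1073 of 3312 genes. The highest was a − peak of score 60.7 (53.4 to 68.7) at chrX:123900329-123900675 in exon 6 of 7. Introns and exons are numbered here by the canonical transcript. A + peak of score 30.8 (25.7 to 36.7) at chrX:123900662-123901008 overlapped it by 14 bp and was annotated in intron 6, with its centre 142 bp from an exon. A + peak of score 20.3 (16.2 to 25.2) at chrX:123891275-123891621 was in intron 4. Only the first of the 3 scores exceeded the list median of 34.0. No peak lay in the XIAP 3′-UTR at chrX:123907182-123913972, and the nearest peak ended 6174 bp before it. This 3′-UTR is 6791 bp long and held 20 ATTTA pentamers, more than that of any other apoptosis gene except CFLAR with 23, and 75 starts of TTTTT. With positions moved 173 bp toward the start of each peak's strand, as examined below, all 3 peaks lay in coding exons, over codons 326 to 352 and 367 to 434 of 497. These stretches are 85.9 to 87.3% identical to BIRC8, a transcribed pseudogene copy of XIAP that was unlisted, so reads of the pair could be confused where they carry no difference. The exonic stretches under the XIAP peaks were chosen by the same rule as the sequences above. They come from much shorter sequence than the 6791 bp 3′-UTR, so their T counts are not compared with its stretch. They are shown with the score of their peak in the order of the gene, at chrX:123891275-123891304, chrX:123900603-123900632 and chrX:123900662-123900691.
XIAP, exon 4, score 20.3: ataaacaatattcATTTAactcattcactt
XIAP, exon 6, score 60.7: tataaatcacttgaggttctggttgcagat
XIAP, exon 6, score 30.8: agatgagtcaagtcagacttcattacagaa

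BIRC6, a very large ubiquitin-conjugating IAP with 74 exons, had 6 peaks and ranked 1276. All were annotated in introns and none in the 3′-UTR. Their scores were 14.7 in intron 8 (chr2:32406296-32406642, − strand), 48.7 in intron 44 (chr2:32491449-32491795), 27.2 in intron 45 (chr2:32493663-32494009), 40.6 in intron 70 (chr2:32599818-32600164), 22.8 in intron 71 (chr2:32603095-32603441) and 37.2 in intron 73 (chr2:32611561-32611907), the last 5 on the + strand. The highest and lowest of them had intervals of 42.2 to 56.0 and 11.2 to 18.9, so the peaks of this gene differed beyond counting error. BIRC2 and BIRC3, which encode the cellular IAPs of tumor necrosis factor signaling, and BIRC7 were unlisted.

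The caspase genes contributed 21 peaks on 3 of 12 protein-coding names, beside 15.4% of all protein-coding genes with a peak. CASP2, an initiator caspase activated in the PIDDosome, had 11 peaks, the most of any gene in the set, and ranked 606. Its 4 highest peaks were all in the 3′-UTR in exon 11 of 11 and formed 2 pairs of opposite strand. The upstream pair scored 105.2 on the − strand (chr7:143305572-143305918) and 117.2 on the + strand (chr7:143305729-143306075). The downstream pair scored 95.9 on the − strand (chr7:143306715-143307061) and 104.5 on the + strand (chr7:143306924-143307270). The Poisson intervals of the highest of these peaks, 107 to 128, and of the lowest, 86.7 to 106, did not overlap, whereas those of every other combination did. The other 7 peaks, in exons and introns over the coding part of the gene, scored 28.1 to 57.0, and the 3′-UTR peaks thus stood above every other peak of the same transcript. All 4 of the 3′-UTR peaks were named CLCN1 in the gene column. A further peak of score 38.9, listed under the neighboring TMEM139, lay in intron 1 of CASP2.

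CASP8, the initiator caspase of death receptors, had 7 peaks with scores from 16.2 to 92.3 and ranked 761. The highest was on the + strand at chr2:201266622-201266968, in intron 2 with its centre 4 bp from an exon. A pair of peaks in the last exon scored 67.8 on the − strand (chr2:201286297-201286643), reaching over the stop codon, and 67.5 on the + strand (chr2:201287063-201287409), in the 3′-UTR. The deposited annotation placed both in a non-coding transcript of CASP8, so they are not among the 3′-UTR peaks counted above. The fourth highest, a − peak of score 52.6 at chr2:201276551-201276897, was in intron 6 and shared all its 347 bp with exons of an unnamed long non-coding RNA. The peak of score 16.2 lay outside the canonical transcript and had a focus ratio of 0.922, where the median over the set was 0.553. This ratio is the share of a peak's reads that are placed around its centre as HOMER expects. A peak of score 65.6 at chr2:201272781-201273127 was annotated to a CASP8 transcript that could not be matched in RefSeq and was therefore not counted.

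CASP10, a close relative of CASP8 at death receptors, had 3 peaks of scores 11.5, 18.4 and 19.3 and ranked 2343. The 2 higher ones were in its 3′-UTR and were named CASP8 in the gene column. CASP9, the initiator caspase of the apoptosome, was unlisted, as was CASP6, an executioner caspase. CASP1, CASP4 and CASP5, which act in inflammation, CASP14 of the epidermis, and CASP8AP2, which shares the name but is no caspase, were unlisted as well.

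APAF1, the scaffold of the apoptosome, had 5 peaks and ranked 1405. The scores were 41.6 (chr12:98659213-98659559), 32.3 (chr12:98671627-98671973) and 30.3 (chr12:98699554-98699900) on the + strand and 21.0 (chr12:98722907-98723253) on the − strand in introns, and 42.3 (chr12:98733421-98733767) on the − strand in the 3′-UTR. The intervals of the highest intronic peak, 35.6 to 48.3, and of the 3′-UTR peak, 36.3 to 49.1, overlapped almost entirely. The APAF1 3′-UTR held more than its own count shows. Peaks of 63.9 at chr12:98734168-98734514 and 58.0 at chr12:98734671-98735017 lay inside it and were listed under ANKS1B, and both were above each of the 5 peaks annotated to APAF1. DIABLO, which encodes an antagonist of the IAPs, was unlisted.

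**Figure D2:**
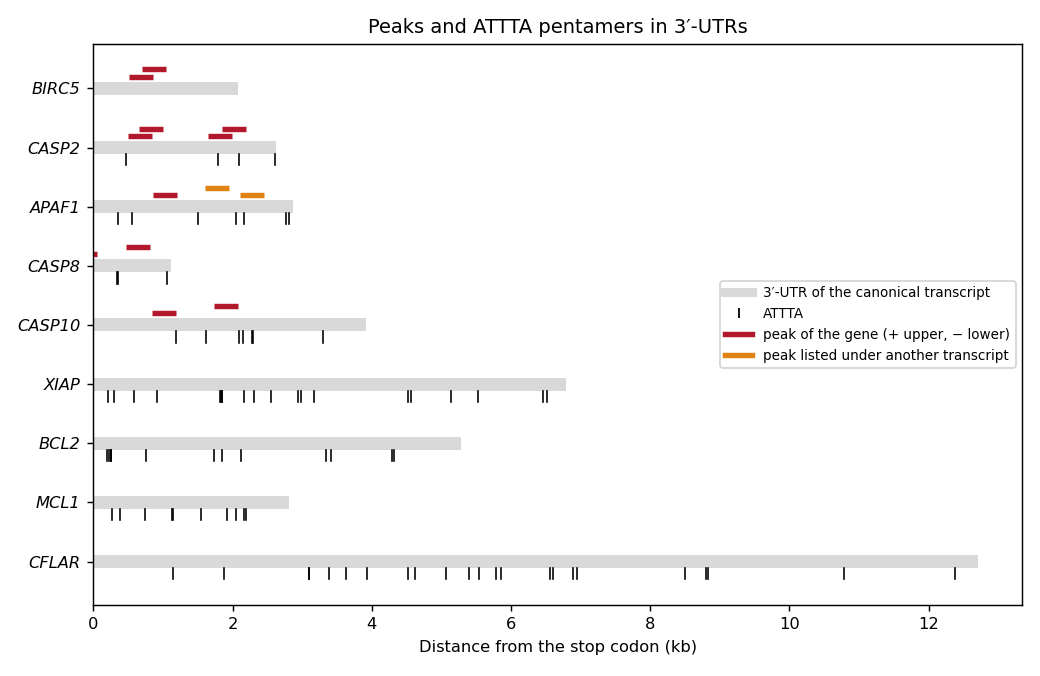
Peaks and ATTTA pentamers along the 3′-UTRs of 9 apoptosis genes, in kb from the stop codon; grey bars are the canonical 3′-UTRs, black ticks ATTTA, red bars the listed peaks of the gene (+ peaks upper, − peaks lower) and orange bars peaks listed under another gene. BIRC5 has peaks and 0 ATTTA, and CASP2, APAF1, CASP8 and CASP10 have peaks and 4, 7, 3 and 7 ATTTA. XIAP, BCL2, MCL1 and CFLAR have 20, 13, 10 and 23 ATTTA and no peak in the 3′-UTR, and were picked for this. TNFRSF10D, with 12 ATTTA and a 3′-UTR peak, is not drawn, so the contrast is not a result.

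Among the BCL2 family, 1 of 6 pro-survival genes was listed, beside 15.4% of all protein-coding genes. BCL2L2, which encodes the pro-survival protein BCL-w, had 3 peaks and ranked 1161. The scores were 55.8 on the + strand (chr14:23307934-23308280) and 47.5 on the − strand (chr14:23307645-23307991) in exon 3 of 4, and 15.4 on the + strand (chr14:23306899-23307245) in intron 1. These peaks overlapped exons of BCL2L2-PABPN1 by 266, 232 and 54 bp, so the transcript of origin cannot be told apart. BCL2, MCL1, BCL2L1, BCL2A1 and BCL2L10 were unlisted. So were the pore-forming BAX and BAK1, with 0 of 2 listed, and the BH3-only genes BID, BIK, BMF, PMAIP1 and BCL2L11, with 0 of 5. These counts of 0 come from short lists of genes and were not set against the other lists by a test. BCL2L13, a mitochondrial BCL2-like protein also known as a mitophagy receptor, had 3 peaks of scores 15.7, 13.5 and 14.4 and ranked 2619, while BCL2L12, BCL2L14 and BCL2L15 were unlisted.

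The highest score of the set carried the name BCL2L2-PABPN1, and the peaks of that name did not lie on BCL2-family sequence. BCL2L2-PABPN1 is a readthrough transcript that joins BCL2L2 to the downstream PABPN1, the nuclear poly(A)-binding protein. Its 3 peaks scored 861.9 on the + strand (chr14:23324124-23324470), 686.7 on the − strand (chr14:23323780-23324126) and 472.3 on the − strand (chr14:23323090-23323436). All 3 fell within PABPN1, at chr14:23321457-23326163, overlapped its exons by 152, 88 and 60 bp and were named PABPN1 in the gene column. PABPN1 itself had 2 further peaks of scores 755.2 and 678.1. The peaks of BCL2L2 proper scored at most 55.8, and without the readthrough the median highest score was 42.3 over 13 genes.

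Of the death receptor genes, 2 of 7 were listed, beside 15.4% of all protein-coding genes. TNFRSF10A encodes the TRAIL receptor DR4 and had 3 peaks of scores 13.5, 12.5 and 26.7. The highest of them was annotated at the promoter, outside the transcript, and all its 347 bp lay on an exon of TNFRSF10A-DT, the divergent non-coding transcript. TNFRSF10A-DT had 2 peaks of its own, with scores of 17.4 and 24.2. TNFRSF10D, a decoy receptor for TRAIL, had 1 peak of score 14.7 in its 3′-UTR, which held 12 ATTTA pentamers. TNFRSF10B, TNFRSF10C, FAS, the adaptor FADD and CFLAR, the inhibitor of caspase-8 known as c-FLIP, were unlisted. All 6 scores of these 3 genes were below the list median of 34.0.

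The symbol PDCD, for programmed cell death, was given to genes that do not form a family. Of the 11 protein-coding ones 0 were listed, beside 15.4% of all protein-coding genes, and this difference was not tested. They include PDCD1, the immune checkpoint receptor PD-1, PDCD4, an inhibitor of translation, and PDCD6IP, the endosomal sorting protein ALIX, together with PDCD1LG2, PDCD2, PDCD2L, PDCD5, PDCD6, PDCD7, PDCD10 and PDCD11. The PDCD name in the list was PDCD6P1, a pseudogene, with 1 peak of score 36.7 and a focus ratio of 0.92. All of this peak lay on PPP4R2P5, a processed pseudogene of another gene, and on the strand opposite to PDCD6P1. Apart from BIRC8 and CASP12, the other unlisted names were 19 pseudogenes and non-coding RNAs. The label of apoptosis regulators therefore holds for 11 of the 14 listed genes and not for BCL2L2-PABPN1, TNFRSF10A-DT and PDCD6P1.

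Apoptosis genes whose symbols lie outside the rule were counted from a separate list. Of 36 such genes, 7 had a peak, with 28 peaks in all, beside 15.4% of all protein-coding genes with a peak. This difference was not tested. BAG4, a chaperone cofactor that silences death receptors, had 3 peaks and a highest score of 171.1, and MDM2, a ubiquitin ligase, had 10 peaks and a highest score of 157.1. MARCHF5, CRADD and HUWE1 followed with highest scores of 30.1, 24.2 and 16.9.

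The position of the peaks in transcripts was then examined. The deposited annotation placed 33 of the 56 peaks in introns, or 58.9% (45.9 to 70.8%), beside 61.9% of all peaks. It placed 10 in 3′-UTRs, or 17.9% (10.0 to 29.8%), beside 14.6%, and 7 in exons, or 12.5% (6.19 to 23.6%), beside 12.6%. Each of these intervals included the share of the whole list. Non-coding transcripts held 5 peaks, or 8.93% (3.87 to 19.3%), beside 3.44%, and these were 3 peaks of CASP8 and 2 of TNFRSF10A-DT. Although 3.44% lay below the interval, peaks of 1 gene are not independent, so the interval is too narrow. In the canonical transcript of CASP8, its 3 peaks lay in intron 7, in coding exon 9 and in the 3′-UTR. The 10 peaks in 3′-UTRs had a median score of 100, the 7 in exons 47.5 and the 33 in introns 32.5, and over the whole list these medians were 65.4, 44.0 and 28.6. The 3′-UTR median rested on BIRC5 and CASP2, since the 6 peaks of these genes scored 95.9 or more and the other 4 scored 42.3 or less.

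The intronic peaks lay mostly at the edges of exons. In the canonical transcripts, 33 peaks likewise had their centre in an intron, although not exactly the same ones, since a CASP8 peak annotated in an intron lay outside the canonical transcript and another annotated as non-coding lay in an intron. For these 33, the median distance from the centre to the nearest exon was 103 bp, 30 were within 347 bp, which is the length of a peak, and 2 were more than 1000 bp away. Where peaks of opposite strands overlapped in the same gene, the + peak lay further along the chromosome in 11 of 11 pairs, by 68 to 344 bp with a median of 289 bp, and in 96.5% of the 2241 such pairs of the whole list. The higher score of a pair was 1.04 to 1.97 times the lower, and the XIAP pair and the intronic BIRC5 pair, at 1.97 and 1.70 times, were the most unequal, with Poisson intervals apart. Intervals were also apart for the 3′-UTR pair of BIRC5 and the pair of BCL2L2-PABPN1, at 1.31 and 1.26 times. How far reads were moved before peaks were placed is not stated, so each position was also read 173 bp, the distance from centre to edge, back against its own strand. There, 23 of the 56 peaks were in coding exons, or 41.1% (29.2 to 54.1%), 17 in introns, or 30.4% (19.9 to 43.3%), and 12 in 3′-UTRs, or 21.4% (12.7 to 33.8%). For all 13711 peaks with a transcript model the shares were 53.2%, 20.2% and 18.7%. Of the 33 peaks with their centre in a canonical intron, 20 were in an exon at this position. The strand of the peak was that of the gene for 32 of 56, or 57.1%, beside 53.2% of all peaks, and 31 peaks were on the + and 25 on the − strand.

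**Figure D3:**
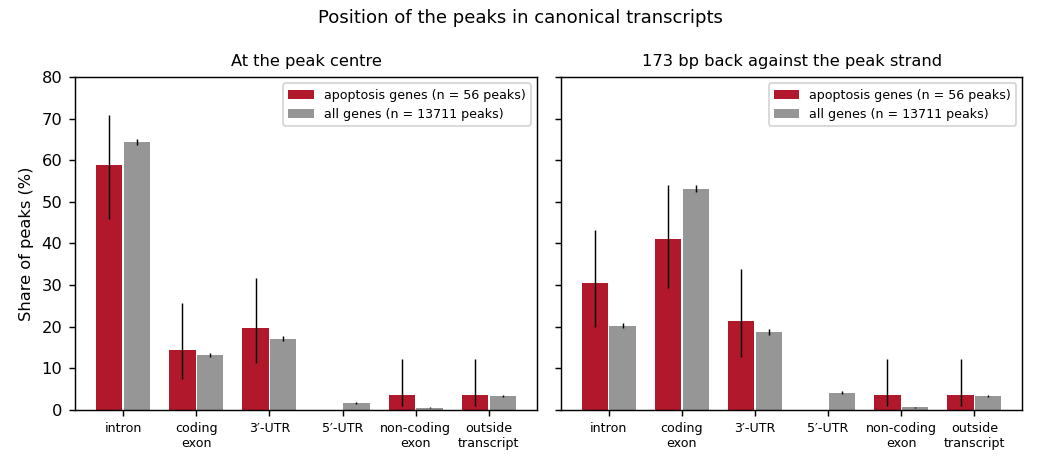
Share of peaks (%) by position in the canonical transcript, at the peak centre (left) and 173 bp back against the peak's own strand (right), for the apoptosis genes (red, n = 56 peaks) and all genes (grey, n = 13711 peaks), with Wilson 95% intervals. Moving the position lowers the intronic share of the apoptosis genes from 58.9% to 30.4% and raises the share in coding exons from 14.3% to 41.1%, while the 3′-UTR share goes from 19.6% to 21.4%.

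Motifs were counted in the 347 bp window of each peak on the strand of the gene, because HuR reads AU-rich and U-rich RNA. ATTTA was found in 21 of the 56 windows, or 37.5% (26.0 to 50.6%), and in 50.6% of the 13711 windows of all genes. The longer TATTTAT, which holds an ATTTA, was found in 0 of 56 windows (Wilson upper limit 6.42%, and 5.36% if a count of 0 allows up to 3), and in 9.11% of all windows. A run of TTTTT was found in 38 windows, or 67.9% (54.8 to 78.6%), and in 68.5% of all windows. Among the 10 peaks annotated in 3′-UTRs, 3 held ATTTA and 7 held TTTTT, beside 52.7% and 78.5% of 2054 such peaks of all genes. With windows moved 173 bp back, 5 of the 10 held ATTTA and 6 held TTTTT, beside 51.1% and 73.7%. Windows of overlapping peaks share sequence, so these intervals are too narrow. A motif in a window is a description of its letters and not a mapped HuR site.

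The 3′-UTRs of the 12 listed protein-coding genes had a median length of 2454 bp and 2.49 ATTTA per kb, and those of 43 unlisted genes 1251 bp and 2.25 per kb. Over all protein-coding genes, the corresponding values were 2502 bp and 2.80 per kb with a peak and 864 bp and 2.07 per kb without. Of the 8 apoptosis genes with 10 or more ATTTA in the 3′-UTR, XIAP and TNFRSF10D were listed, and CFLAR, PDCD6IP, BCL2, BIRC3, FAS and MCL1 were not. Over all protein-coding genes, 1043 of the 2446 with 10 or more ATTTA had a peak, beside 3060 of all 18820 with an annotated 3′-UTR. At large, genes with many pentamers were thus listed more often, and 8 genes are too few to compare with that share. The listed apoptosis genes had the longer median 3′-UTR, as did listed genes at large. Among the longer 3′-UTRs, listed and unlisted apoptosis genes overlapped in length and pentamer count, as the plot of pentamers against length shows.

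**Figure D4:**
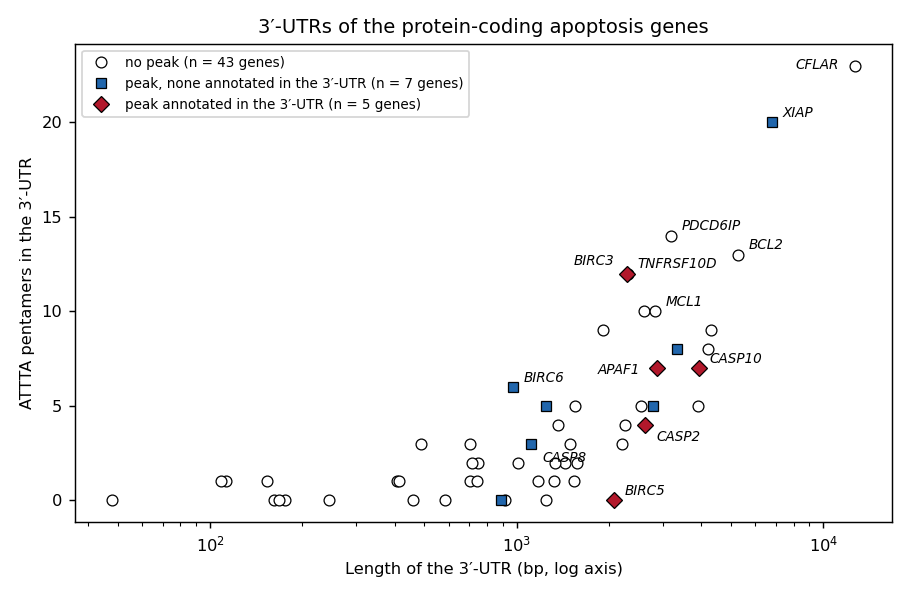
Number of ATTTA pentamers against the length of the 3′-UTR (bp, log axis) for the 55 protein-coding apoptosis genes with an annotated 3′-UTR; open circles are unlisted genes (n = 43), blue squares listed genes with no peak annotated in the 3′-UTR (n = 7) and red diamonds genes with one (n = 5). Listed and unlisted genes overlap over the upper range of lengths, BIRC5 has 0 pentamers, and the point of TNFRSF10D covers that of BIRC3, both at 12.

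The deposited gene column, which names the gene with the nearest transcription start site, gave another picture of the set. It held 19 names that match the rule, of which 11 were shared with the transcripts, and it gave the same gene as the transcript for 36 of the 56 peaks. The 8 other names covered 20 peaks that lay mostly on neighboring genes. BIRC3 was named for 3 peaks of up to 461.8 on YAP1, and BIRC2 for 4 peaks of up to 434.4 on TMEM123. PDCD7 was named for peaks on CLPX, BCL2L14 for peaks on ETV6, PDCD2 for peaks on TBP and DIABLO for peaks on VPS33A, with highest scores of 75.1, 33.8, 27.7 and 18.4. PMAIP1 was named for 1 intergenic peak of score 27.9, and BIRC6-AS2 for the BIRC6 peak of score 40.6. Had the column been used, BIRC2 and BIRC3 would have appeared among the genes with the highest peaks, although none of these peaks was annotated to their transcripts.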

How the data were processed

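RNA of 2 HuR RIP and 2 IgG RIP samples was sequenced, and samples were grouped by antibody. According to the labels and methods, the authors aligned reads to hg38 with STAR and called peaks with HOMER. The methods name ANNOVAR for annotation, whereas the file header holds a HOMER annotation command. Versions, settings and pooling are not given in the sources used here. The deposited list holds a peak score, whose scale is not stated, a focus ratio, which is a fraction per the file headers, and a signed distance (bp) from the closest start site, which was not analysed. Depth per library is unknown.

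Transcripts named in the annotation were matched to RefSeq genes for 13835 of 13929 peaks, and 94 were unmatched. Exons and UTRs were those of GENCODE 44 canonical transcripts on hg38, the build of the list, with 1-based coordinates. Sequences were read from the hg38 genome. Shares carry Wilson and scores exact Poisson 95% intervals.

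The planned edgeR test of HuR against IgG could not be run because the list has no counts. The genes and lists were chosen with earlier results of these data known. Every listed gene is named with its number of peaks and highest score, XIAP and the 8 genes with the highest peaks (XIAP among them) are given peak by peak, with the 4 highest where there are more than 6, and up to 6 pathway genes outside the rule are named. Some genes that these rules name are not reported here. Genes named by the gene column alone and hosts of overlapping peaks were added after their values were seen. Alternatives in the source of the gene name, score filter, placement, merging and motif were tried. Calculations used pysam 0.24.0, pandas 2.3.3, scipy 1.17.1 and numpy 2.4.6 in Python 3.11.15, plots used matplotlib 3.10.9, and the functions were tested on simulated data.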

Additional observations from a re-analysis of the deposited data

How the results depend on the processing

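Over 5 results and 25 alternatives, 20 values stayed close to the reported one. With only the peaks at or above the median score of the list, 9 of the 14 genes and 32 of the 56 peaks were left, by the construction of the filter. With the scores of a gene summed, the median per gene was 115 in place of 45.5. With TATTTAT in place of ATTTA the share of windows was 0%, while TTTTT gave 67.9%, in place of 37.5%. The gene column gave 19 genes, a number counted as close although only 11 of the names were shared, and merging of overlapping peaks gave 45 loci. The 3′-UTR share of peaks ranged over 15.6 to 21.9% under its 5 alternatives. Alternatives that leave out the readthrough, add the unmatched CASP8 transcript, count peaks of any gene over the span or take only 3′-UTR windows were chosen after seeing the data. No paired analysis was possible because values per sample are absent from the table analysed, and leaving out each replicate could not be run for the same reason. Without counts per library, a difference between HuR and IgG was not detectable for any gene.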
